A study of Rattus norvegicus with 8 samples.

Results

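Microglia and macrophage genes were followed in the hypothalamus of young rats whose mothers had been underfed and which had been given leptin or saline soon after birth. The set holds 34 genes chosen by symbol from a written list, and each of the 34 was measured, among 14506 genes in all. Each gene was read by a single probe set. Expression was measured on Affymetrix Rat Gene 1.0 arrays in total RNA of the hypothalamus of female Sprague-Dawley offspring aged 21 days. The 8 arrays form 4 groups of 2, called replicates A and B. Con-s and Con-l are offspring of normally fed mothers given saline or leptin, and CR-s and CR-l are offspring of calorie-restricted mothers given saline or leptin. The mothers' food was cut by 50% from gestation day 11 to 21, with restriction continued postnatally, and the injections covered postnatal days 2 to 8. The design note writes Con-r for the leptin-treated controls, which the sample titles call Con-l, and the sample names can also be read as saying that the mothers received the saline or leptin. Nothing in the labels says whether an RNA sample came from 1 animal or from a pool, so p-values measure only the spread between these samples, which may be technical.

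Microglia are the resident macrophages of the brain. They depend on the growth factor receptor encoded by Csf1r and on the transcription factor PU.1 (Spi1), and in the undisturbed brain they carry a typical set of receptors (Cx3cr1, P2ry12, Tmem119 and others) with which they sense neurons, nucleotides and damage. They make the C1q subunits of complement, which mark synapses and debris for uptake. Other macrophages of the brain lie along vessels and in the meninges and carry scavenger receptors such as Mrc1 and Cd163.

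All values below are log2 of the probe set intensity, so a difference of 1 is a doubling, and a level of one gene cannot be set against that of another gene. A gene passed where limma's adjusted p over all 14506 genes was under 0.05. Array medians over all 29215 probe sets were 111.8 to 114.1 in intensity. The interquartile range was 2.92 on CR-s replicate B, below that of every other array (up to 3.08). On that array 26 of the 34 genes were lower than on CR-s replicate A (median difference -0.12, against -0.01 over all genes), and on Con-l replicate B 26 were lower than on Con-l replicate A (median -0.10, against -0.02). Of 12 hypothalamic marker genes 11 were measured, at 6.21 to 11.7. Of the 34 genes 3 had dim probe sets (Cd14, Tlr2 and Il1b, with means over the 8 arrays under 5.95, the lower quartile). The CR mean of Itgam (5.86) also lay under that level. No detection call is available to separate signal from background. In a tissue sample, fewer microglia and less RNA per microglial cell cannot be told apart.

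**Figure D1:**
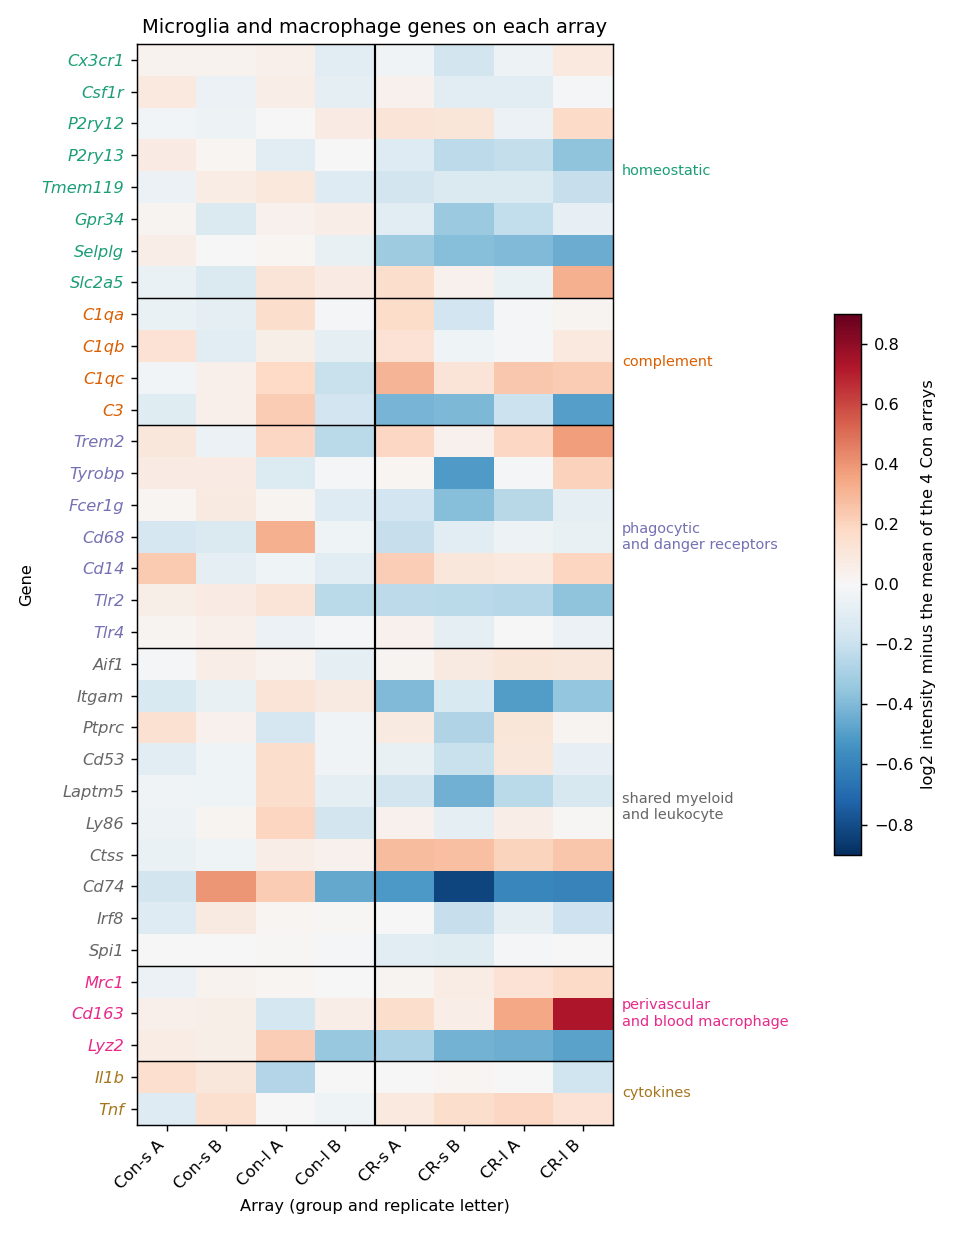
The 34 genes (rows, coloured by role) on the 8 arrays (columns, Con left and CR right of the line), as log2 intensity minus the gene's mean over the 4 Con arrays. Selplg and Cd74 are blue on all 4 CR arrays and Ctss is red on all 4, while Cx3cr1, Csf1r and C1qa stay near white.

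Restricted offspring were first set against controls with saline and leptin averaged (4 arrays against 4). The genes did not move together: Selplg fell and Ctss rose. Among genes used to recognise microglia, some lay near 0 (Cx3cr1 and Csf1r at -0.04, Aif1 at 0.08, P2ry12 at 0.09) and others were lower without passing (Itgam at -0.35, P2ry13 at -0.23, Gpr34 at -0.18, Tmem119 at -0.16). With limma 2 of the 34 passed, where 1.21% of all genes did. One was higher, as were 0.324% of all genes, and one lower, as were 0.882%. At an unadjusted p under 0.05 there were 14, with 3 higher and 11 lower in CR, where 15.8% of all genes had such a p (6.71% higher and 9.04% lower). For 9 of the 34 the arrays of one diet lay wholly to one side of the other's, with 2 higher and 7 lower in CR, where 11.2% of all genes did so (4.52% higher and 6.67% lower). In Cd163 and Itgam the nearest arrays of the diets were all but level. The median difference of the 34 was -0.04, against 0.00 over all genes, and their single values ran from -0.63 (Cd74) to 0.33 (Cd163).

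**Figure D2:**
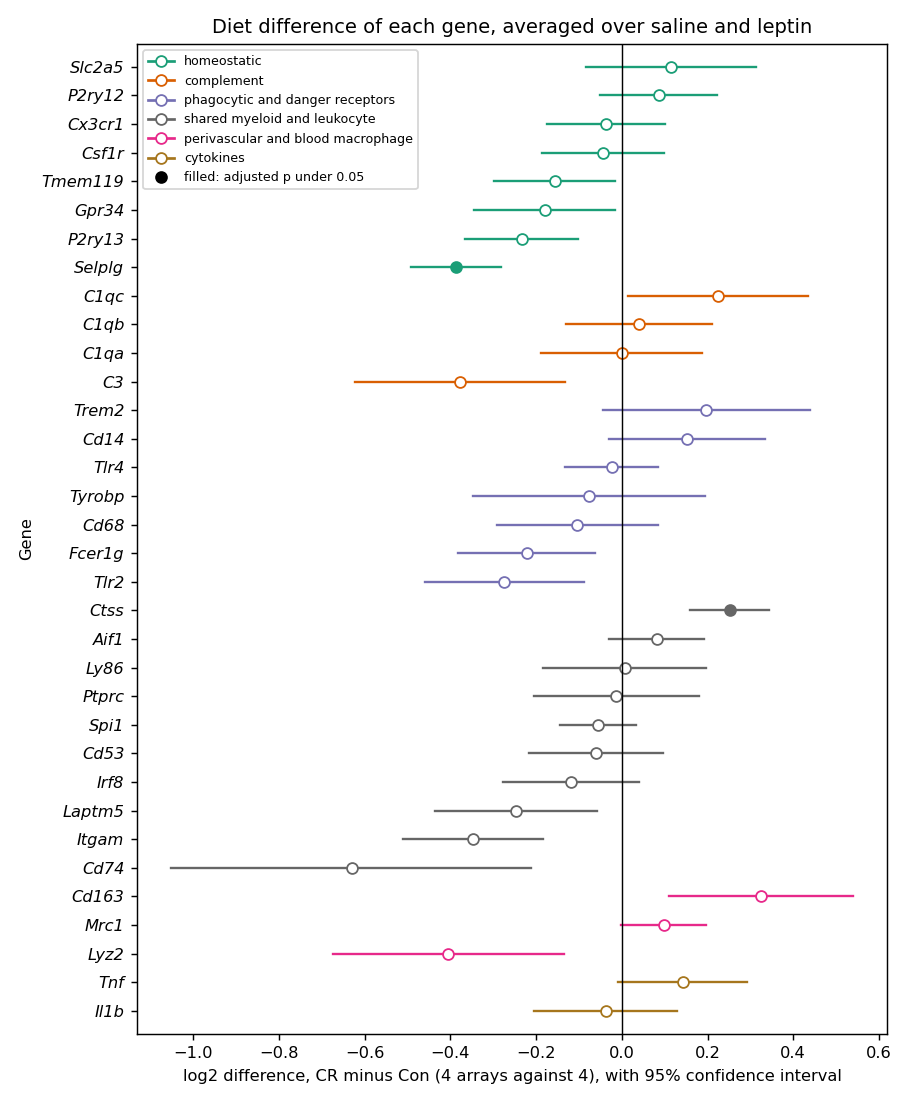
The log2 difference between the CR and Con arrays for each of the 34 genes with its 95% confidence interval, grouped by role. The filled points, which passed, are Selplg at -0.39 and Ctss at 0.25, and the interval of Cd74 is the widest, from -1.05 to -0.21.

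Among the 8 receptors and surface proteins of homeostatic microglia, 6 were lower and 2 higher in restricted offspring. An unadjusted p under 0.05 was found for 4, all lower (50.0%, where 15.8% of all genes had it), and 1 passed. That gene was Selplg, which encodes the selectin ligand PSGL-1, a glycoprotein of leukocytes and microglia. Selplg measured 9.52 and 9.46 in Con-s, 9.48 and 9.39 in Con-l, 9.14 and 9.08 in CR-s, and 9.07 and 9.02 in CR-l. Its highest CR array lay below its lowest Con array, and the leptin arrays lay beside the saline arrays of the same diet. Selplg averaged 9.46 ± 0.05 (SD, n = 4) in Con and 9.08 ± 0.05 (SD, n = 4) in CR and fell 1.31-fold (log2 difference -0.39, SE 0.04, 95% confidence interval -0.49 to -0.28, limma adjusted p = 0.0223). The call ended when any single array was left out (adjusted p from 0.0634 to 0.0925, difference from -0.41 to -0.37) and when all probe sets were tested together (adjusted p = 0.0788).

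Selplg and Tmem119 are neighbours in the RefSeq gene order of rat assembly GRCr8, with 0 protein-coding genes between them. Tmem119, a transmembrane protein used to tell microglia from other macrophages, measured 8.18 and 8.30 in Con-s, 8.32 and 8.12 in Con-l, 8.07 and 8.10 in CR-s, and 8.10 and 8.02 in CR-l. Its arrays did not overlap either, but Con-l replicate B (8.12) lay barely above CR-s replicate B (8.10). The difference was smaller than that of Selplg, -0.16 (SE 0.06, interval -0.30 to -0.02, adjusted p = 0.269). P2ry13, an ADP receptor, measured 8.83 and 8.78 in Con-s, 8.66 and 8.76 in Con-l, 8.64 and 8.52 in CR-s, and 8.54 and 8.39 in CR-l. Every CR array of P2ry13 lay below every Con array, though the nearest were close (8.64 and 8.66). The difference of P2ry13 was -0.23 (SE 0.06, adjusted p = 0.11). It passed with trend and robust variances (adjusted p = 0.0229) and among the brighter 60% of genes (adjusted p = 0.0371). In those fits 744 and 609 of all genes passed, against 175 in the main one. In other fits of all 8 arrays the limma adjusted p of P2ry13 reached 0.219, and without a single array the difference ran from -0.27 to -0.20.

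P2ry12, the adjoining ADP receptor gene by which microglia steer their processes toward damage, did not follow P2ry13. P2ry12 measured 9.79 and 9.77 in Con-s, 9.81 and 9.89 in Con-l, 9.93 and 9.92 in CR-s, and 9.76 and 9.99 in CR-l, so that both diets overlapped (difference 0.09, SE 0.06, interval -0.05 to 0.22, adjusted p = 0.531). Cx3cr1, the receptor for neuronal fractalkine, measured 10.03 and 10.03 in Con-s, 10.05 and 9.89 in Con-l, 9.97 and 9.84 in CR-s, and 9.96 and 10.09 in CR-l. The diet difference of Cx3cr1 was -0.04 with an interval of -0.17 to 0.10. Csf1r, on which microglial survival depends, differed by -0.04 (interval -0.19 to 0.10). Gpr34, a lysophospholipid receptor, stood at -0.18 (SE 0.07, adjusted p = 0.278) and Slc2a5, the fructose transporter of microglia, at 0.11 (SE 0.08, adjusted p = 0.568).

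**Figure D3:**
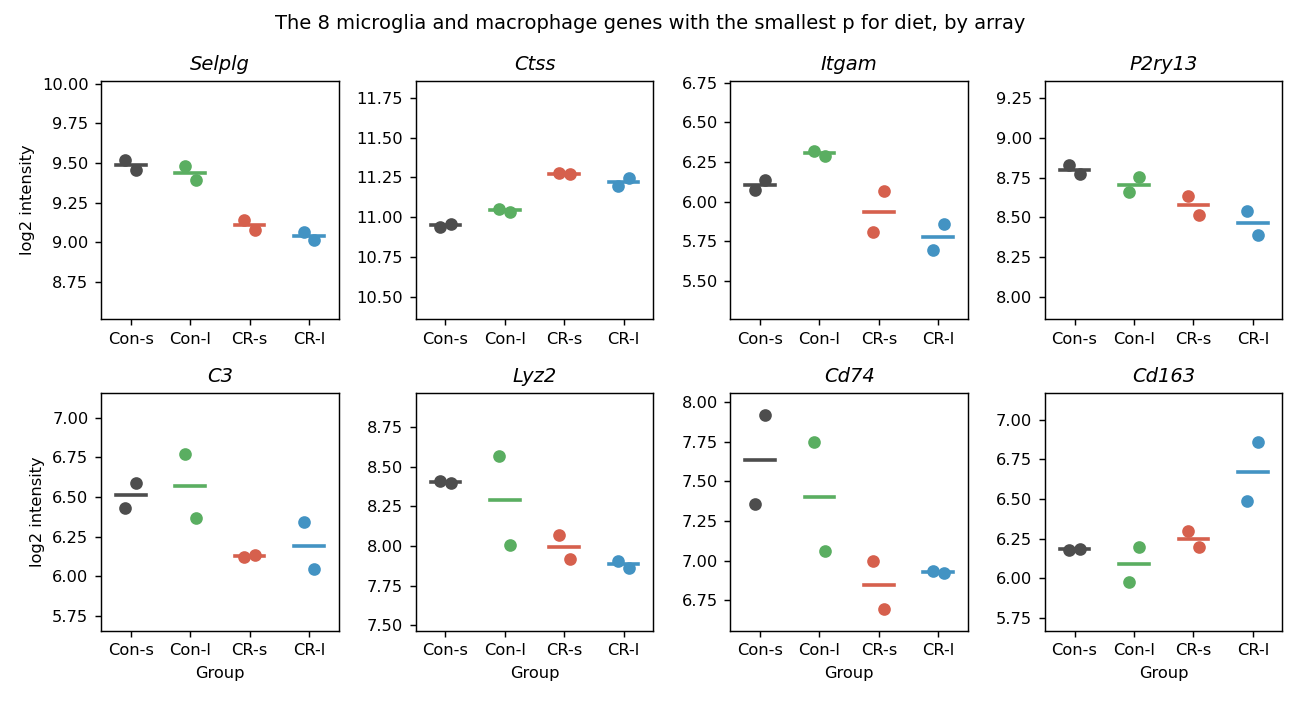
The 8 genes with the smallest p for diet, as log2 intensity on each array (points) with the group mean (bar). Each vertical axis spans 1.5 log2 units. Con and CR points overlap in the panel of Lyz2, and CR-s replicate B touches a Con point in those of Itgam and Cd163. The 2 CR-l points of Cd163 (6.49 and 6.86) lie above all others.

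The 4 complement genes split, with 1 higher and 1 lower at an unadjusted p under 0.05 (50.0%, where 15.8% of all genes had it). C1qa, C1qb and C1qc encode the chains of C1q and lie side by side in the genome. C1qa measured 8.47 and 8.45 in Con-s, 8.69 and 8.51 in Con-l, 8.69 and 8.36 in CR-s, and 8.51 and 8.55 in CR-l, which gave a difference of 0.00 (interval -0.19 to 0.19). That of C1qb was 0.04 (interval -0.13 to 0.21), with 8.51 and 8.29 in Con-s, 8.43 and 8.29 in Con-l, 8.52 and 8.34 in CR-s, and 8.36 and 8.47 in CR-l. The sign of either gene turned with the array left out. C1qc stood at 0.22 (SE 0.09, interval 0.01 to 0.43, adjusted p = 0.286). C3, the central complement protein that C1q activation cleaves, measured 6.43 and 6.59 in Con-s, 6.77 and 6.37 in Con-l, 6.12 and 6.14 in CR-s, and 6.34 and 6.04 in CR-l. The lowest Con array of C3 (6.37) lay just above the highest CR array (6.34), and the difference was -0.38 (SE 0.10, adjusted p = 0.147).

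Beyond these members, 12 further complement genes were measured, of which 9 were lower in CR and 3 higher. All 5 with an unadjusted p under 0.05 were lower (41.7%, against 15.8% of all genes). Only 1 passed, where 1.21% of all genes did. C1s, the protease of the C1 complex, fell 1.34-fold (log2 difference -0.42, SE 0.06, adjusted p = 0.0336). Most of that average came from the leptin arrays, since C1s stood at -0.12 (SE 0.09, adjusted p = 0.739) for CR-s minus Con-s and at -0.72 (SE 0.09, adjusted p = 0.0605) for CR-l minus Con-l. Its CR arrays were dim, at 5.26 to 5.87. C1r, the protease that activates C1s, differed by -0.23 (SE 0.06, adjusted p = 0.125). C1s is also made by fibroblasts and other cells of the brain's coverings. In the same comparison 13 of 14 meningeal genes were lower, 4 of them passing, with a summed intensity of 6087 to 8080 on the Con arrays and 3470 to 3994 on the CR arrays. Ogn, a matrix proteoglycan of meningeal fibroblasts, fell 2.31-fold (adjusted p = 0.0223). The part of these cells in the complement values was not tested.

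Of the 7 phagocytic and danger receptors 5 were lower, 2 higher, and with limma 0 passed. At an unadjusted p under 0.05 there were 2 (28.6%), where 15.8% of all genes had such a p. Trem2, a lipid receptor that drives microglial phagocytosis, measured 7.80 and 7.64 in Con-s, 7.89 and 7.46 in Con-l, 7.88 and 7.74 in CR-s, and 7.88 and 8.07 in CR-l (difference 0.20, SE 0.10, adjusted p = 0.415). Tyrobp, the adaptor through which Trem2 signals, measured 8.73 and 8.73 in Con-s, 8.53 and 8.64 in Con-l, 8.68 and 8.15 in CR-s, and 8.64 and 8.87 in CR-l. The array of CR-s replicate B was low for Tyrobp, and the difference of -0.08 became 0.06 without it. Cd14, the co-receptor for bacterial lipopolysaccharide, measured 6.04 and 5.72 in Con-s, 5.77 and 5.71 in Con-l, 6.03 and 5.91 in CR-s, and 5.90 and 6.0 in CR-l, and the diets overlapped (0.15, SE 0.08, adjusted p = 0.401).

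Fcer1g, an adaptor of Fc receptors, and Tlr2, a receptor for bacterial lipoproteins, had the smallest p of this role. The first stood at -0.22 (SE 0.07, adjusted p = 0.181), the other at -0.27 (SE 0.08, adjusted p = 0.161). Tlr2 was 5.60 on Con-l replicate B, which lay among the CR arrays at 5.48 to 5.61. Tlr4 stood at -0.02 (interval -0.13 to 0.08) and Cd68, a lysosomal protein of phagocytes, at -0.10 (interval -0.29 to 0.08).

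In the 10 genes shared by myeloid cells and other leukocytes, 7 were lower and 3 higher. An unadjusted p under 0.05 was found for 1 higher and 3 lower (40.0%, where 15.8% of all genes had it), and 1 passed. Ctss encodes cathepsin S, a lysosomal protease abundant in microglia that also trims the invariant chain of MHC class II. Ctss measured 10.94 and 10.96 in Con-s, 11.05 and 11.03 in Con-l, 11.28 and 11.27 in CR-s, and 11.20 and 11.25 in CR-l. All CR arrays lay above all Con arrays, and CR-l lay nearer to Con-l than CR-s lay to Con-s. Ctss averaged 10.99 ± 0.06 (SD, n = 4) in Con and 11.25 ± 0.04 (SD, n = 4) in CR and rose 1.19-fold (log2 difference 0.25, SE 0.04, interval 0.16 to 0.34, adjusted p = 0.0383). The call ended without any single array (adjusted p from 0.107 to 0.139, difference from 0.24 to 0.26), with all probe sets tested (adjusted p = 0.112) and in the fit blocked on replicate letter (adjusted p = 0.0683).

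The Ctss promoter is shown because this gene is the member that rose. The window runs from 250 bases before the RefSeq start site to 50 after it, on the plus strand at chr2:185775146-185775445 of GRCr8, and capitals mark matches to GAGGAA, the core bound by PU.1, and to a repeat bound by interferon regulatory factors (GAAA, any 2 bases, GAAA), on either strand. Itgam, which had the next smallest p and the opposite sign, is given beside it (plus strand, chr1:192089342-192089641).
Ctss: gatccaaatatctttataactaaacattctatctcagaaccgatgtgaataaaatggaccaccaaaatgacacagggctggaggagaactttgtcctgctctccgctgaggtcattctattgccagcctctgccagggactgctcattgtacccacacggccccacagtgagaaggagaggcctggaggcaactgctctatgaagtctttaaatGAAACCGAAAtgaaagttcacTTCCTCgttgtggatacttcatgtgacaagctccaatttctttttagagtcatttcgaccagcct
Itgam: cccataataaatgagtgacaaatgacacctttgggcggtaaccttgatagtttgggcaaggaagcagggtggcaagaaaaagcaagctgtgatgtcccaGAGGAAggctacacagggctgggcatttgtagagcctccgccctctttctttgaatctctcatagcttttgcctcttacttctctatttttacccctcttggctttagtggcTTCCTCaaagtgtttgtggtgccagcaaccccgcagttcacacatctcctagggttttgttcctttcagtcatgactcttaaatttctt
In Ctss the matches begin at -36 and -15 relative to the start site, and in Itgam the PU.1 core matches begin at -151 and -39. RefSeq promoters were matched for 25 of the 34 genes, without P2ry12, Tmem119, Selplg, C1qc, Tyrobp, Fcer1g, Aif1, Ly86 and Spi1. The PU.1 core was present in 16 of these 25 promoters (64.0%) and in 27.6% of all 33469 promoters of this length. The GAAA repeat was present in 1 of the 25, that of Ctss, and in 3.92% of all. A match of letters is a description and does not show binding.

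Itgam encodes the alpha chain of complement receptor 3 (CD11b). It measured 6.07 and 6.14 in Con-s, 6.32 and 6.29 in Con-l, 5.81 and 6.07 in CR-s, and 5.70 and 5.86 in CR-l. The diets were apart, but CR-s replicate B at 6.07 all but touched Con-s replicate A. The CR arrays were dim, with a mean of 5.86, under the lower quartile of 5.95. The difference was -0.35 (SE 0.07, interval -0.51 to -0.18, adjusted p = 0.0746). It passed with cyclic loess between arrays (adjusted p = 0.0489) and with trend and robust variances (adjusted p = 0.0288). In the latter fit 744 of all genes passed, against 175 in the main one. In other fits of all 8 arrays the limma adjusted p of Itgam reached 0.17, and without a single array the difference ran from -0.41 to -0.28. Itgb2, the beta chain that pairs with Itgam, was in the wider list and differed by -0.25 (SE 0.09, adjusted p = 0.224).

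Cd74 encodes the invariant chain, which guides MHC class II molecules to the lysosome. It measured 7.36 and 7.92 in Con-s, 7.75 and 7.06 in Con-l, 7.0 and 6.70 in CR-s, and 6.93 and 6.92 in CR-l. The Con arrays of Cd74 were spread more widely than its CR arrays. The diets did not overlap, with Con at 7.52 ± 0.39 (SD, n = 4), CR at 6.89 ± 0.13 (SD, n = 4) and a difference of -0.63 (SE 0.18, interval -1.05 to -0.21, adjusted p = 0.155). Of 9 MHC class II genes 6 were lower and 3 higher, and with limma 0 passed. An unadjusted p under 0.05 was found for 2 (22.2%), where 15.8% of all genes had it. RT1-Da, an alpha chain of class II, differed most (-0.49, SE 0.10, adjusted p = 0.0681), with 5.89 to 6.53 on the Con arrays. Its CR arrays were dim, at 5.67 to 5.78. Ciita, the class II transactivator, stood at -0.00 (SE 0.08) and RT1-DMb, a peptide-loading chain, at 0.16 (SE 0.06, adjusted p = 0.214).

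Aif1, which encodes the microglial stain IBA1, measured 7.13 and 7.20 in Con-s, 7.18 and 7.06 in Con-l, 7.17 and 7.23 in CR-s, and 7.25 and 7.25 in CR-l (difference 0.08, interval -0.03 to 0.19, adjusted p = 0.46). Ptprc, the leukocyte antigen CD45, measured 6.13 and 6.03 in Con-s, 5.84 and 5.96 in Con-l, 6.08 and 5.72 in CR-s, and 6.10 and 6.02 in CR-l (difference -0.01, interval -0.21 to 0.18). Spi1 and Irf8, transcription factors of the myeloid lineage, stood at -0.06 (interval -0.14 to 0.03) and -0.12 (interval -0.28 to 0.04). Laptm5, a lysosomal membrane protein of leukocytes, differed by -0.25 (SE 0.08, adjusted p = 0.202) without overlap between the diets. Cd53 and Ly86 stood at -0.06 and 0.01, with p of 0.387 and 0.933 before adjustment.

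The 3 genes of perivascular and blood macrophages went different ways, and with limma 0 passed. At an unadjusted p under 0.05 there were 2 (66.7%), where 15.8% of all genes had such a p. Cd163, the scavenger receptor for haemoglobin bound to haptoglobin, measured 6.18 and 6.19 in Con-s, 5.98 and 6.20 in Con-l, 6.30 and 6.20 in CR-s, and 6.49 and 6.86 in CR-l. CR-s replicate B and Con-l replicate B were level at 6.20, the separation of the diets came chiefly from the CR-l arrays, and the averaged difference was 0.33 (SE 0.09, adjusted p = 0.153). Mrc1, the mannose receptor, measured 6.64 and 6.73 in Con-s, 6.72 and 6.70 in Con-l, 6.72 and 6.76 in CR-s, and 6.83 and 6.87 in CR-l (difference 0.10, SE 0.04, adjusted p = 0.326).

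Lyz2, the lysozyme of macrophages and granulocytes, measured 8.41 and 8.40 in Con-s, 8.57 and 8.01 in Con-l, 8.07 and 7.92 in CR-s, and 7.91 and 7.87 in CR-l. Con-l replicate B lay at the level of the CR arrays, and the difference was -0.41 (SE 0.11, adjusted p = 0.155). Without that array the difference of Lyz2 was -0.54 and passed (adjusted p = 0.0364), in a fit in which 26 genes passed in all.

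Both cytokine genes overlapped between the diets. Il1b measured 6.05 and 6.0 in Con-s, 5.64 and 5.90 in Con-l, 5.90 and 5.92 in CR-s, and 5.90 and 5.72 in CR-l (difference -0.04, interval -0.21 to 0.13). Tnf measured 5.88 and 6.14 in Con-s, 6.0 and 5.96 in Con-l, 6.08 and 6.16 in CR-s, and 6.18 and 6.13 in CR-l (difference 0.14, interval -0.01 to 0.29, adjusted p = 0.345). Of 24 further genes of cytokines, chemokines and their control 12 were higher and 12 lower. Before adjustment 4 higher and 3 lower had a p under 0.05 (29.2%, against 15.8% of all genes). Nos2, the inducible nitric oxide synthase, rose 1.24-fold (log2 difference 0.31, SE 0.05, adjusted p = 0.04), and no other gene of that list passed.

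Further lists placed these values beside other genes of the same cells. Of 33 other microglia genes 13 were higher and 20 lower, with a median of -0.03, and with limma 0 passed. At an unadjusted p under 0.05 there were 7 (21.2%), where 15.8% of all genes had such a p. Of 17 ligands and partners of microglial receptors, 1 higher and 4 lower had an unadjusted p under 0.05 (29.4%, against 15.8% of all genes). In that list 1 gene passed, where 1.21% of all genes did. It was Tgfbr1, a receptor chain for TGF-beta, which maintains the homeostatic state. Tgfbr1 fell 1.23-fold (log2 difference -0.30, SE 0.05, adjusted p = 0.0372). Tgfbr1 is made by many cell types. Among 16 genes known from disease-associated microglia 7 were higher and 9 lower. Cd9, a tetraspanin that oligodendrocytes also carry, fell (-0.34, SE 0.06, adjusted p = 0.0449), while Gpnmb, a glycoprotein of lipid-laden macrophages, differed by 0.41 (SE 0.08, adjusted p = 0.0658).

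The lists of border macrophages (14 genes, 5 higher and 9 lower, median -0.04), of blood monocytes and granulocytes (14 genes, 5 higher and 9 lower, median -0.02) and of lymphocytes (15 genes, 9 higher and 6 lower, median 0.01) had 0 genes passing with limma. At an unadjusted p under 0.05 there were 4, 2 and 1 genes (28.6%, 14.3% and 6.67%), where 15.8% of all genes had such a p. Lyve1, a hyaluronan receptor of border macrophages and lymphatic vessels, had the smallest p among the first and was higher (0.26, SE 0.06, adjusted p = 0.098). The other 3 border macrophage genes with such a p were lower, among them the scavenger receptor gene Colec12 (-0.30, SE 0.08, adjusted p = 0.135). Summed intensities were 1809 to 1943 in Con and 1677 to 1839 in CR for border macrophages, 640 to 696 and 630 to 679 for monocytes and granulocytes, and 727 to 752 and 717 to 820 for lymphocytes.

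Markers of other tissue elements also differed between these arrays. Over all genes 1.21% passed in this comparison. All 6 red blood cell genes were lower in CR, 5 passing, with a summed intensity of 3846 to 5821 on the Con arrays and 1358 to 2171 on the CR arrays. All 9 oligodendrocyte genes were lower, 4 passing (summed intensity 41950 to 45065 in Con, 35662 to 38703 in CR), as were 13 of 16 endothelial and mural genes, 2 passing (6810 to 7239 in Con, 6203 to 6336 in CR). The summed intensity of the 34 microglia and macrophage genes was 10788 to 11620 in Con and 10564 to 11376 in CR, so these ranges overlapped. Such a sum is set mostly by its brightest genes, and the roles within it differed. The homeostatic genes, which include the bright and falling Selplg, summed to 4509 to 4717 in Con and 4206 to 4487 in CR, without overlap. Cx3cr1, Csf1r and P2ry12, also bright in that sum, differed by only -0.04, -0.04 and 0.09. The nearest of these sums were close, at 4509 in Con-l and 4487 in CR-l. Selplg itself measured 9.48 and 9.39 in Con-l and 9.07 and 9.02 in CR-l. The part of Selplg in that narrow separation was not tested. The shared myeloid genes, which include the bright and rising Ctss, summed to 3250 to 3590 in Con and 3589 to 3713 in CR. Of 10 neuronal genes 7 were higher and 3 lower, with 0 passing (limma). An unadjusted p under 0.05 was found for 2 of them (20.0%), where 15.8% of all genes had it. Of 9 astrocyte genes 5 were lower and 4 higher (summed intensity 22531 to 23535 in Con, 21274 to 22631 in CR). Gfap, the astrocyte filament protein, fell 1.91-fold (limma adjusted p = 0.0233), and the water channel gene Aqp4 differed by -0.42 (adjusted p = 0.0702). Of 7 choroid plexus genes 3 were lower and 4 higher, with a median of 0.01 and a summed intensity of 570 to 625 in Con and 537 to 547 in CR. Of these 1 passed, the potassium channel gene Kcnj13, which is part of that sum and fell 2.25-fold (limma adjusted p = 0.0223). The part of blood, meningeal, vessel, oligodendrocyte, astrocyte or choroid plexus RNA in the values of Selplg, Ctss, C3, Lyz2, Cd74 and Cd163 was not tested.

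**Figure D4:**
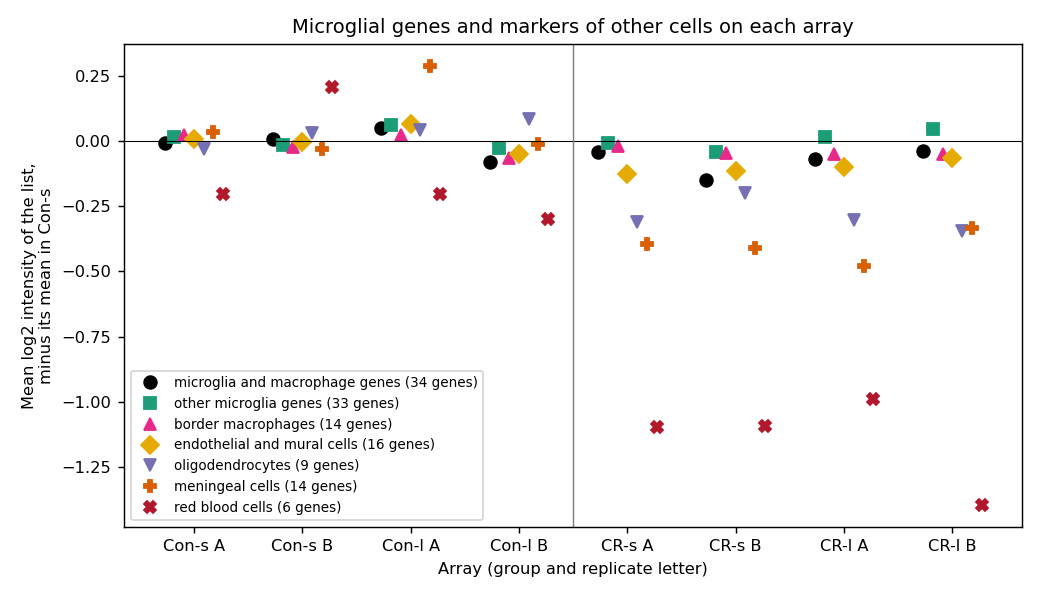
Mean log2 intensity of 7 gene lists on each array, minus the list's mean in Con-s. The microglia and macrophage genes lie between -0.15 and 0.05 on all 8 arrays, while the red blood cell genes lie between -1.39 and -0.99 and the meningeal genes between -0.48 and -0.33 on the CR arrays.

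The next question was whether the diet difference was alike in saline-treated and in leptin-treated offspring. These 2 comparisons share no array, but both use 1 estimate of each gene's spread from all 8 arrays, so their p-values are not independent. Under saline (CR-s against Con-s) the median of the 34 genes was -0.08, against -0.00 over all genes, with 12 higher and 22 lower. Under leptin (CR-l against Con-l) it was 0.00, as over all genes, with 17 higher and 17 lower. With limma 0 of the 34 passed in either. Over all genes 0.0% passed under saline and 0.0207% (3 genes) under leptin. Under each treatment 8 of the 34 had an unadjusted p under 0.05, where 8.5% of all genes had it under saline and 14.2% under leptin.

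The sign was shared in 27 of the 34 genes (79.4%), where 60.5% of all genes shared it. In 9 genes both CR arrays lay below both Con arrays under saline and again under leptin (P2ry13, Tmem119, Selplg, C3, Tlr2, Itgam, Laptm5, Cd74 and Lyz2), where 9.13% of all genes did. In 3 genes they lay above in each (C1qc, Ctss and Cd163), where 6.34% did. The CR arrays lay on opposite sides of Con under saline and leptin in 0 of the 34, where 4.34% of all genes had this. An unadjusted p under 0.05 with the same sign in each was found for 5 genes (P2ry13, Selplg, C3, Ctss and Lyz2), where 3.34% of all genes had it. The Selplg difference was -0.38 under saline (SE 0.06, adjusted p = 0.255) and -0.40 under leptin (SE 0.06, adjusted p = 0.0816). For Ctss it was 0.32 under saline (SE 0.06, adjusted p = 0.255) and 0.18 under leptin (SE 0.06, adjusted p = 0.227). P2ry13 differed by -0.23 and -0.24, C3 by -0.38 and -0.38, and Lyz2 by -0.41 and -0.40.

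**Figure D5:**
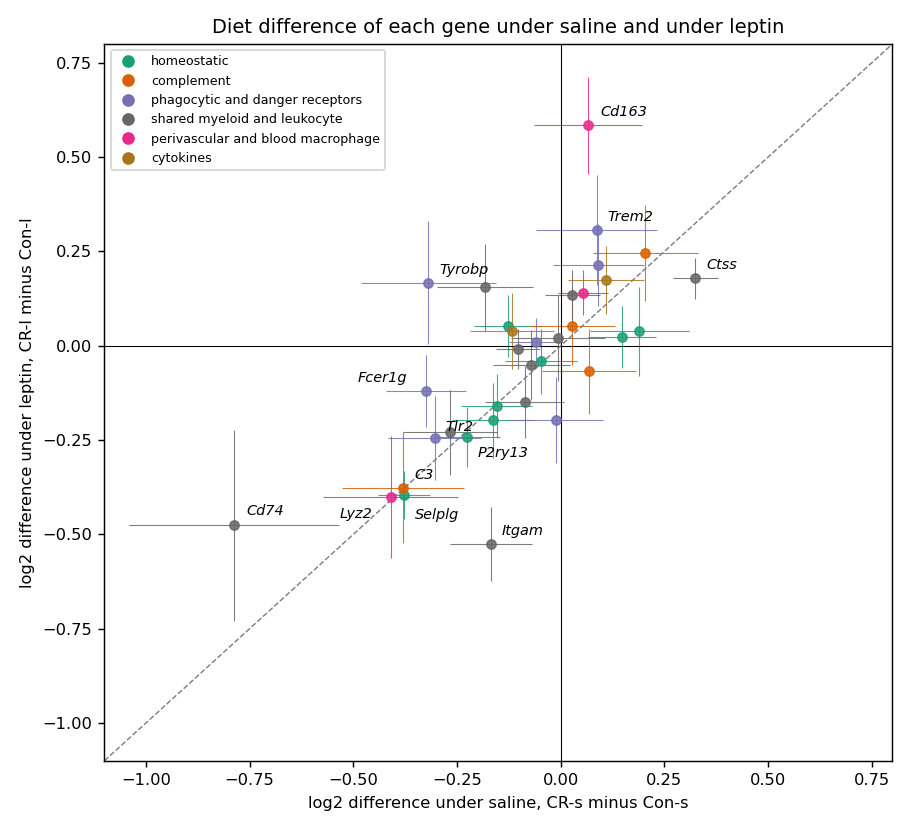
The diet difference of each of the 34 genes under saline (horizontal) and under leptin (vertical), both in log2, with bars of 1 SE on either side and the line of equal differences dashed. Selplg, C3, Lyz2 and P2ry13 lie close to the line, Cd163 lies above it at 0.07 and 0.58, and Itgam lies below it at -0.17 and -0.53.

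Whether leptin changed the diet difference was tested as the interaction of diet and leptin. With limma 0 of the 34 passed, as did 0.0% of all genes, and 2 had an unadjusted p under 0.05, where 5.15% of all genes had it. Cd163 had the smallest p: its diet difference was 0.07 (SE 0.13) under saline and 0.58 (SE 0.13, adjusted p = 0.14) under leptin, an interaction of 0.52 (SE 0.18, interval 0.09 to 0.95, adjusted p = 0.898). Itgam came next, with a diet difference of -0.17 (SE 0.10) under saline and -0.53 (SE 0.10, adjusted p = 0.1) under leptin and an interaction of -0.36 (SE 0.14, interval -0.68 to -0.03, adjusted p = 0.898). Tyrobp differed by -0.32 and 0.17, an interaction of 0.49 (SE 0.23, adjusted p = 0.898) that includes the low value on CR-s replicate B.

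The leptin differences themselves had mixed signs in this set, with 20 genes higher and 14 lower. Averaged over both diets the median of the 34 genes was 0.01, against 0.00 over all genes. Without regard to sign the median difference was 0.059, against 0.046 over all genes. With limma 0 passed, as did 0.0% of all genes, and 1 had an unadjusted p under 0.05, where 4.87% of all genes had it. That gene was Il1b, at -0.18 (SE 0.07, interval -0.35 to -0.01, adjusted p = 0.913). Cd68 followed at 0.19 (SE 0.08, interval -0.00 to 0.38, adjusted p = 0.913), with 6.13 and 6.14 in Con-s, 6.60 and 6.23 in Con-l, 6.07 and 6.18 in CR-s, and 6.23 and 6.21 in CR-l. Its single high array was Con-l replicate A.

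Within the control diet, Con-l minus Con-s had a median of -0.03 over the 34 genes, and within the restricted diet CR-l minus CR-s had one of 0.03, against -0.00 and 0.01 over all genes. With limma 0 of the 34 passed in either, as did 0.0% of all genes. In controls 2 had an unadjusted p under 0.05, Il1b (-0.26, SE 0.10) and Cd68 (0.28, SE 0.11), each at an adjusted p of 0.997, where 4.19% of all genes had it. In restricted offspring 1 had it, Cd163 (0.42, SE 0.13, interval 0.12 to 0.73, adjusted p = 0.807), where 5.85% of all genes had it. Tyrobp had the next smallest p there (0.34, SE 0.16, interval -0.04 to 0.73). Selplg, the gene that fell with restriction, stood at -0.05 (SE 0.06) in controls and -0.07 (SE 0.06) in restricted offspring, and Ctss at 0.09 (SE 0.06) in controls and -0.05 (SE 0.06) in restricted offspring. Ctss was the 1 gene of the 34 whose leptin arrays lay above the saline arrays in controls and below them in restricted offspring, and 6.27% of all genes had leptin arrays on opposite sides in this way. These 2 leptin comparisons share arrays with the diet comparisons above, so their values are not independent of them.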

How the data were processed

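RMA in Affymetrix Expression Console was the authors' processing, per the submitters' processing notes, without a version or genome build. Deposited intensity values are linear and were log2-transformed here, as planned for linear values, and not normalized again. Of 29215 probe sets 15310 carry 1 gene symbol, updated through Entrez numbers to RefSeq, and the probe set with the highest mean was kept, giving 14506 genes. A limma model of 4 group means over 8 arrays (limma 3.58.1 in R 4.3.3, 4 residual and 3.21 prior degrees of freedom, two-sided, Benjamini-Hochberg over all genes) gave each comparison, and the code was tested on simulated data. The 2 arrays per group limit the precision. The members and lists were chosen with earlier results of these data known. Values on each array are given for members that passed, the 2 with the smallest p in each comparison and fixed members of each role. P2ry13 and the members described by differences were picked after their values were seen. Of the other lists, genes that passed or had the 2 smallest p may be named, and Ciita was added after its value was seen.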

Additional observations from a re-analysis of the deposited data

Results flagged for a closer look

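Ctss was the member whose leptin arrays lay on opposite sides of saline in the 2 diets, a pattern that 6.27% of all genes had. Both Con-l arrays (11.05 and 11.03) lay above both Con-s arrays (10.94 and 10.96), and both CR-l arrays (11.20 and 11.25) lay below both CR-s arrays (11.28 and 11.27). The difference between the leptin effects was -0.15 (SE 0.08, limma adjusted p = 0.898) and did not pass.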

How the results depend on the processing

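For the averaged diet comparison the count of members passing was 2, and it became 5 with trend and robust variances, 1 with the replicate letters as a block (replicate block), 0 with all probe sets tested and 0 to 1 without a single array. Over all genes the count was 175, and it became 744 with trend and robust variances, 609 among the upper 60% of genes, 267 with the compared factor alone, 87 with the replicate block, 0 with all probe sets tested and 0 to 27 without a single array. Under saline 2 members passed with trend and robust variances, and under leptin 4 did so and 1 among the upper 60%, where the main count was 0. The counts over all genes in these fits were not recorded, so the member counts cannot be set against a share. In the averaged comparison the same settings raised the count over all genes from 175 to 744 and 609. Arrays with the same letter deviated from their groups with correlations of -0.06 to 0.11, so the letters were not taken as pairs. Differences near 0 changed sign: C1qa reached -0.002 with array medians subtracted, and without a single array it ran from -0.083 to 0.083, C1qb from -0.016 to 0.096, Cx3cr1 from -0.075 to 0.000, Il1b from -0.105 to 0.028, Ly86 from -0.082 to 0.096, Ptprc from -0.101 to 0.074, Tlr4 from -0.057 to 0.008 and Tyrobp from -0.208 to 0.056. Of 774 recomputed member differences 722 kept direction and side of the threshold, 19 lost a call, 13 gained one and 20 changed sign. Only the averaged diet differences of Selplg and Ctss passed in the main fit, so every lost call was theirs. Each of these 2 was recomputed in 16 other settings. The differences that had not passed had no call to lose, so the pooled count says little about how stable a call is. The cause of the changes was not tested, except that a single array fewer leaves fewer degrees of freedom. The interaction has no fit with the compared groups alone. RMA values carry no detection call, so Cd14, Tlr2 and Il1b, and Itgam on the CR arrays, may hold little signal over background.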
